A study of Homo sapiens with 6 samples.

Results

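The loci of 8 genes of the AP-1 transcription factor family, JUN, JUNB, JUND, FOS, FOSB, FOSL1, FOSL2 and ATF3, were examined in lists of chromatin immunoprecipitation sequencing (ChIP-seq) peaks for the coactivators YAP and TAZ. A locus was the gene span plus 30 kb on each side, with gene spans rounded to 1 kb in the human build hg19, and its peaks were all deposited peaks that overlapped this window. They came to 91 of 392250 peaks in YAP replicate 1, 87 of 353465 in YAP replicate 2, 86 of 333625 in TAZ replicate 1 and 76 of 310781 in TAZ replicate 2. The cells were H1299, a widely used line from a human lung carcinoma of the non-small cell type, deprived of serum for 18 hours before the chromatin was taken, and no other cell state was sampled. The series held 2 libraries with an anti-YAP antibody, 2 libraries with an anti-TAZ antibody and 2 input libraries without antibody, which have no peak list of their own. The labels do not state whether the replicates are separate cultures, so the spread between libraries may be technical.

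AP-1 is a dimer of basic leucine zipper proteins. Jun proteins pair with each other or with Fos proteins, Fos proteins need a Jun partner, and ATF3 belongs to the related ATF group that also pairs with Jun proteins. YAP and TAZ, the coactivators that Hippo signalling restrains, bind DNA by way of TEAD factors, and TEAD and AP-1 motifs often lie together in enhancers of epithelial and cancer cells. FOS and several other genes of the family are immediate-early genes, which serum switches on within minutes in many cell types.

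The peaks were broad calls against input, and the fold quoted throughout is the ratio to input that the authors deposited for each peak. For a merged region it is that of the peak with the highest −log10 q in each library. The number of reads behind each list is unknown, and its part in the length of a list was not tested. The YAP lists covered 514 and 449 Mb of chromosomes 1 to 22 and X, and the TAZ lists 405 and 425 Mb. With 2 libraries against 2, the smallest p of an exact permutation test (two-sided) is 0.33. YAP and TAZ are therefore described by whether their libraries overlapped in value, beside the same count over the whole genome. That background came from 64 kb tiles for whole loci and from 2 kb bins for gene starts.

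At the starts of JUN, JUNB, FOS and FOSB, both TAZ libraries had more of the surrounding sequence under peaks than both YAP libraries. The measure was the share of bases under a peak within 1 kb on either side of the gene start. At JUN it was 0% and 65.6% in the YAP libraries, against 71.6% and 91.4% in the TAZ libraries. At JUNB it was 0% and 27.7% in the YAP libraries, against 100% in each TAZ library. Neither gene showed any overlap between the antibodies, but at JUN the highest YAP value lay close to the lowest TAZ value. At FOS it was 0% in each YAP library, against 29.3% and 100% in the TAZ libraries. At FOSB it was 0% and 2.60% in the YAP libraries, against 7.65% and 100% in the TAZ libraries. FOSB thus had almost no cover at its start in 3 of the 4 libraries and full cover in TAZ replicate 2.

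At ATF3 the order was the reverse (1 of 8 starts, against 23.3% of the 2 kb bins with a peak and 16.5% of those in tiles with at least 50% mean cover), with 14.4% and 16.6% in the YAP libraries, against 0% and 13.6% in the TAZ libraries. With lists trimmed to equal length, or with the start moved 0.5 kb into the gene, ATF3 no longer showed this order. RefSeq lists 2 starts for ATF3, and only the upstream one, at the end of the gene span, was measured. The other 3 genes overlapped between the antibodies at their starts. JUND had 50.1% and 11.2% in the YAP libraries, against 24.1% and 100% in the TAZ libraries. FOSL1 had 11.6% and 34.9% in the YAP libraries, against 33.4% and 55.6% in the TAZ libraries. FOSL2 had 36.0% and 34.7% in the YAP libraries, against 16.8% and 100% in the TAZ libraries. In all 3 the highest value was that of TAZ replicate 2. For each of the 8 starts the exact two-sided permutation test gave a p of at least 0.33.

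Both TAZ libraries therefore exceeded both YAP libraries at 4 of 8 starts, against 7.46% of the 756769 bins of 2 kb that held a peak in at least 1 library. This count was not planned before the data were seen, so it is a description only. Among such bins in densely covered tiles, those with a mean cover of at least 50%, the share was 10.3%. The same 4 genes were found without TAZ replicate 2, with peaks of a q-value of at most 0.01, and with all lists trimmed to equal length. With trimmed lists the share of bins was 9.17%. Without TAZ replicate 1 the count was 7, and for peaks at or above fold 4 it was 0. Since spans are rounded to 1 kb, the starts are only that precise, and with an interval of 3 kb on each side the count was 5, with JUND added. No hg19 annotation was used, so the same measure at other gene starts is not given here.

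**Figure D1:**
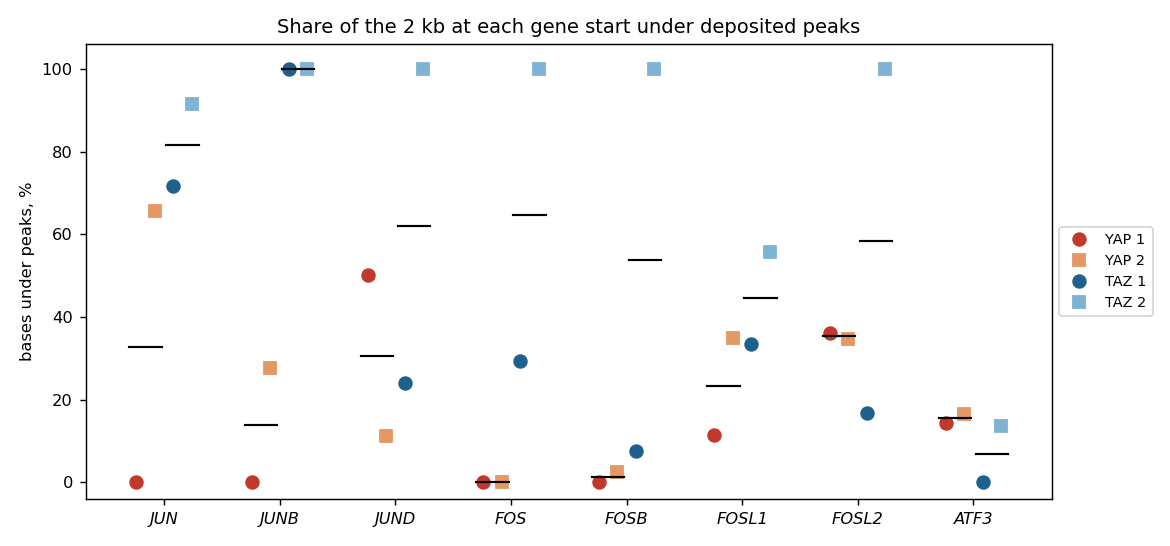
Share of bases under deposited peaks, in percent, in the 2 kb centred on each gene start. Each point is a library and each black line the mean of 2 libraries of an antibody; TAZ replicate 2 sits at 100% for JUNB, JUND, FOS, FOSB and FOSL2, while YAP replicate 1 sits at 0% for JUN, JUNB, FOS and FOSB.

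The libraries also differed within an antibody at the starts. YAP replicate 1 had no peak within 1 kb of 4 starts, YAP replicate 2 and TAZ replicate 1 had none at 1 start each, and TAZ replicate 2 had a peak at all 8. Of the bins in dense tiles with a peak in some library, 5.68% and 5.57% were free of peaks in the YAP libraries. In the TAZ libraries it was 6.60% and 5.11%. Over all tiles these shares were 18.3% and 27.3% with YAP, against 32.7% and 34.1% with TAZ. TAZ replicate 2 covered 5 of the 8 starts in full, TAZ replicate 1 covered 1, and the YAP libraries covered 0. Of the bins in dense tiles, TAZ replicate 2 covered 40.8% in full and TAZ replicate 1 covered 33.8%. The YAP libraries covered 41.5% and 38.6%. Over all tiles, TAZ replicate 2 covered 8.82% and TAZ replicate 1 covered 6.996%, against 10.1% and 8.42% in the YAP libraries. The windows of JUN, FOSL2 and ATF3 fell below the mean cover that defines dense tiles, so dense tiles are no background for their starts.

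Where YAP replicate 1 lacked a peak within 1 kb of the start, the gap between its nearest peaks was 10683 bp at JUN, 6244 bp at FOS, 3961 bp at FOSB and 3139 bp at JUNB. Gaps around a start were also found elsewhere. At ATF3 the gap was 7516 bp in YAP replicate 1 and 20201 bp in TAZ replicate 1, and at JUNB it was 3037 bp in YAP replicate 2. At JUN no other library had a gap over the start. Peaks overlapped the 2 kb start interval in all 4 libraries at JUND, FOSL1 and FOSL2, that is at 3 of 8 starts. The background was 21.6% of all 2 kb bins and 82.9% of those in dense tiles. Without YAP replicate 1 the count was 6.

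Averaged over the 8 loci in bins of 2 kb, YAP replicate 1 had its lowest cover of the 60 kb around the start in the first 2 kb of the gene, at 19.3%. TAZ replicate 2 had its highest there, at 82.4%. YAP replicate 2 had 53.0% in that bin and TAZ replicate 1 had 62.6%. In the bin just upstream of the start, the YAP libraries had 35.1% and 30.5%, against 42.8% and 75.1% in the TAZ libraries. These means give each locus the same weight and hide the large differences between loci described below.

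**Figure D2:**
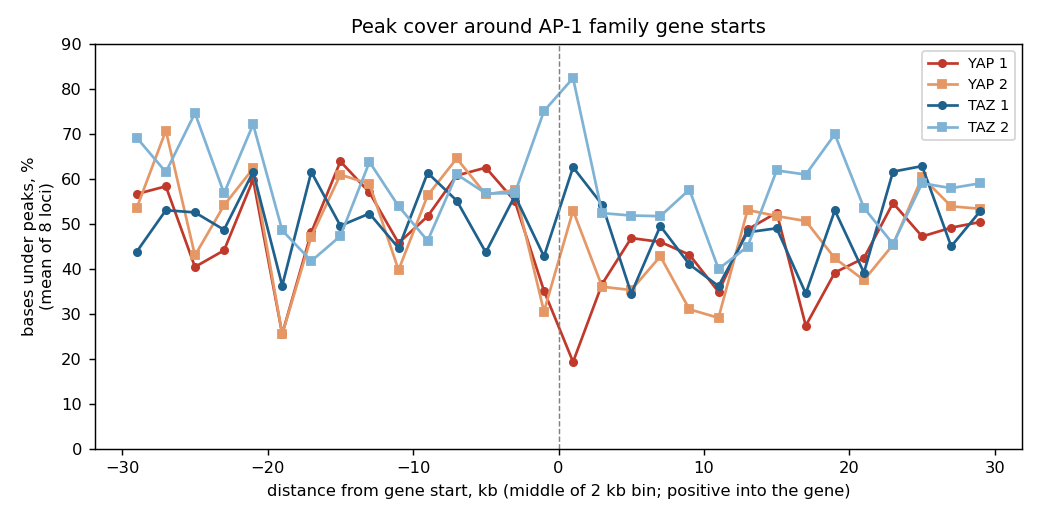
Mean share of bases under peaks over the 8 loci, in percent, in bins of 2 kb from 30 kb upstream to 30 kb downstream of the gene start, for each library. TAZ replicate 2 peaks at 82.4% in the first bin of the gene, where YAP replicate 1 has its minimum of 19.3%.

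The promoter sequences of the 5 genes whose starts separated the antibodies are shown for their letters only. Cover was measured over 2 kb at starts rounded to 1 kb, so the difference is not placed within these sequences. At ATF3 the nearest upstream YAP peaks ended at -0.713 and -0.668 kb from the start used. They are the 250 bases before the annotated start in the RefSeq table of build GRCh38.p14, at chr1:58784048-58784297 (minus strand), chr19:12791236-12791485 (plus), chr14:75278578-75278827 (plus), chr19:45467746-45467995 (plus) and chr1:212565157-212565406 (plus, the first of its 2 listed starts). These coordinates follow another build than the peaks and are not comparable with them. Capitals mark TGACNTCA (the cyclic AMP response element, CRE, and its variants), TGACGT (its first part) and TATAAA, on either strand.
JUN: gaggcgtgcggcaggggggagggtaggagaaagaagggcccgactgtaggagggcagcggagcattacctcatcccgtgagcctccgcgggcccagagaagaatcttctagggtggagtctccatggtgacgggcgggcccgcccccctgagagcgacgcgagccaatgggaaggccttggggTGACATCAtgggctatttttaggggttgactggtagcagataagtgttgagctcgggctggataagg
JUNB: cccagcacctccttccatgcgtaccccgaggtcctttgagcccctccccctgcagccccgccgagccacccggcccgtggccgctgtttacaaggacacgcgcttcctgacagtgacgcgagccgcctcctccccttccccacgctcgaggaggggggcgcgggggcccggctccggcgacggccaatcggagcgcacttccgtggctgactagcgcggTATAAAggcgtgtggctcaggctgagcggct
FOS: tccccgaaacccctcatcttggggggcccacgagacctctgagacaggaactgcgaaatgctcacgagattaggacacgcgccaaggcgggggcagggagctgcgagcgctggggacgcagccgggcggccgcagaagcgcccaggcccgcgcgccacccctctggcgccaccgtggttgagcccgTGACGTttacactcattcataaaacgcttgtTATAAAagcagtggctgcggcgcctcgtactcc
FOSB: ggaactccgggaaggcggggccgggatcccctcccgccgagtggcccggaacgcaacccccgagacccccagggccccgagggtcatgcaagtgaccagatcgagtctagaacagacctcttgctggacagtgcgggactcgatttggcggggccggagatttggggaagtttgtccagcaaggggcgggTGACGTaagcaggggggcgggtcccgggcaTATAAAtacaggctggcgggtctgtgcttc
ATF3: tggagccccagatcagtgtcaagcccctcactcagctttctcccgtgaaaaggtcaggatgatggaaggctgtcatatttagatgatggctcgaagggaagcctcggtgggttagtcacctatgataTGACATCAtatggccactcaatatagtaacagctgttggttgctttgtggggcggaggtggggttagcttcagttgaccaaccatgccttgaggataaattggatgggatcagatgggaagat

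JUN and ATF3, whose starts differed in opposite directions, held the same element TGACATCA, beginning at -67 in JUN and -123 in ATF3, counted from the start with -1 as the base before it. In JUN this is the known site for Jun and ATF dimers. FOS and FOSB held TGACGT at -64 and -60, followed by TATAAA at -33 and -30. JUNB held TATAAA at -31 and none of the CRE forms. Of the 8 genes, 7 were matched in the promoter table, all but FOSL1, with 8 windows since ATF3 has 2. TGACNTCA was found in the windows of 3 of 7 genes and TGACGT in those of 4, against 7.72% and 7.98% of all 35116 promoter windows of 300 bases. Both, and TATAAA (4 of 7 genes, against 11.5%), were searched for after the sequences had been seen.

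Of the other motifs, the full CRE TGACGTCA was found in JUND alone, at -200, against 1.85% of all windows. The AP-1 site TGACTCA or TGAGTCA was found in FOSL2 alone, 5 bases into the transcript, against 4.95%. The TEAD motif GGAATG, or CATTCC on the other strand, was found in 0 of 8 windows, against 14%. The serum response element, in the form known from FOS, was also found in 0 windows, against 0.0342%. The windows reach only 250 bases before the start, so this count cannot say whether FOS or another gene has the element further upstream. The windows are short, and these matches are descriptions of letters only. In base composition the promoters differed, from 77.0% G and C with 49 CpG in JUND to 48.0% with 4 CpG and 46.3% with 1 CpG at the ATF3 starts. The median of all windows was 58.7% with 14 CpG.

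Across whole loci, cover by peaks ranged widely and did not follow the Jun, Fos and ATF groups. The mean cover of the 4 libraries had a median of 55.2% over the 8 loci, against 8.50% over all tiles with a peak. JUNB, FOSB and JUND on chromosome 19 were the most covered, FOSL1 and FOS came next, and FOSL2, ATF3 and JUN were the least covered. On chromosome 19 the median tile had 50.1% cover, and JUNB, FOSB and JUND exceeded 94.1%, 85.9% and 74.0% of its tiles. FOS and FOSL1 exceeded 94.1% and 97.8% of the tiles of their own chromosomes, where the median tile had 6.69% and 6.81%.

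Both TAZ libraries covered more than both YAP libraries at JUNB, JUND and FOSL1, that is at 3 of 8 loci, against 5.54% of the 44163 tiles with a peak. In tiles with at least 50% cover that share was 14.3%. The reverse held at 1 of 8 loci, ATF3, against 47.8% of tiles. Genome-wide, tiles with more YAP cover were thus the more common kind, also in tiles of at least 50% cover (41.1%) and in those below (48.3%, against 4.88% with more TAZ cover). With lists trimmed to equal length, the counts were 6 and 0, against 11.7% and 33.2% of tiles. The TAZ count of 3 was 6 without YAP replicate 2, 6 without TAZ replicate 1 and 0 for peaks at or above fold 4. The YAP count of 1 was 2 without YAP replicate 1.

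**Figure D3:**
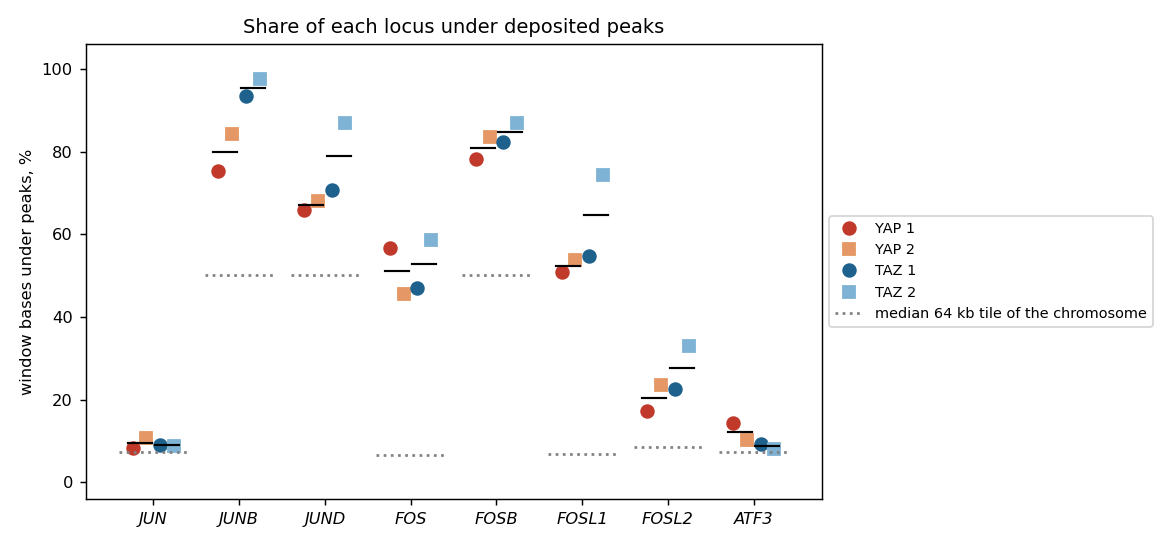
Share of each locus, the gene span plus 30 kb on each side, under deposited peaks, in percent. Points are libraries, black lines are means of 2 libraries, and dotted lines are the median of all 64 kb tiles of the same chromosome over the mean of 4 libraries; FOS and FOSL1 lie far above their chromosome's median, and JUN and ATF3 close to it.

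JUN encodes the founding member of the family and the main partner of FOS. Its window, chromosome 1 from 59216001 to 59280000, was sparsely covered, with 8.29% and 10.6% in the YAP libraries, against 9.09% and 8.76% in the TAZ libraries. Its cover exceeded that of 55.6% of the tiles of chromosome 1. The libraries held 8 and 8 YAP peaks, against 8 and 4 TAZ peaks, which merged into 11 regions. The region over the start, from 59247244 to 59250828, held peaks of YAP replicate 2 (fold 2.79) and of both TAZ libraries (3.47 and 2.90), and none of YAP replicate 1.

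Taken over their full length, also beyond the window, only 3 of the 11 JUN regions had peaks in all 4 libraries. The first, from 59217559 to 59218478, lay near the downstream edge of the window. Its fold was 3.43 and 2.48 in the YAP libraries, against 4.68 and 3.99 in the TAZ libraries, so both TAZ values were higher. Another, from 59279909 to 59283299, crossed the upstream edge, with 2.56 and 2.28 in the YAP libraries, against 2.88 and 2.80 in the TAZ libraries. Of these peaks only that of YAP replicate 2 overlapped the window, and the others lay beyond it. The last, from 59241749 to 59242587, downstream of the gene, had a ratio to input of 2.72 and 3.95 with YAP, against 3.90 and 3.21 with TAZ. The peak with the highest −log10 q in YAP replicate 1, at -15.7 to -15.4 kb from the start (negative values lie upstream), had a ratio to input of 4.61 and no counterpart in any other library.

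JUNB encodes a Jun protein that often restrains JUN-driven growth. Its window, chromosome 19 from 12872001 to 12934000, was nearly filled by peaks. Cover was 75.3% and 84.3% in the YAP libraries, against 93.4% and 97.6% in the TAZ libraries, a difference of -15.7 percentage points (YAP minus TAZ). The means were 79.8 ± 6.34% with YAP and 95.5 ± 3.00% with TAZ (SD, n = 2 each). The antibodies did not overlap, and the exact two-sided permutation p was 0.33, the smallest possible. The same sequence was split into 10 and 7 peaks in the YAP libraries, against 4 and 2 in the TAZ libraries. All merged into 1 region from 12866855 to 12947236, wider than the window, so its peaks cannot be assigned to JUNB alone. In RefSeq order the next genes are HOOK2 and PRDX2.

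The strongest JUNB peaks were YAP peaks. The highest fold was 4.67 and 4.40 in the YAP libraries, against 3.89 and 3.62 in the TAZ libraries. In YAP replicate 1 it belonged to a narrow peak at -19.7 to -19.2 kb, and in YAP replicate 2 to a peak at 6.06 to 9.24 kb, downstream of the short gene. For peaks at or above fold 4 the difference in cover turned to 32.5 percentage points, with YAP higher. JUNB thus had wider TAZ cover and higher YAP maxima. Each peak has a single fold for its whole length, and the maxima came from 10 and 7 YAP peaks, against 4 and 2 TAZ peaks. The YAP replicate 1 maximum belonged to a peak of 451 bp and that of TAZ replicate 2 to a peak of 46124 bp. The part of this splitting in the maxima and in the difference at fold 4 was not tested. Over the gene span itself, cover was 6.90% and 77.7% with YAP, against 100% in each TAZ library.

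JUND encodes the Jun protein that is made most steadily in resting cells. Its window, chromosome 19 from 18360001 to 18423000, had a cover of 66.0% and 68.0% in the YAP libraries, against 70.7% and 87.0% in the TAZ libraries. The means were 67.0 ± 1.42% with YAP and 78.8 ± 11.6% with TAZ (SD, n = 2 each). The difference of -11.9 percentage points rested largely on TAZ replicate 2, and it was -3.70 without that library and -20.0 without TAZ replicate 1. Over the gene span the antibodies lay further apart, at 0.0667% and 21.0% with YAP, against 73.7% and 100% with TAZ. The highest fold was 3.86 and 3.62 with YAP, against 4.51 and 3.81 with TAZ, which overlapped. The 2 strongest TAZ replicate 1 peaks lay downstream of the gene, at 8.48 to 14.5 kb and 22.5 to 26.5 kb, with a fold of 4.49 and 4.51. All 4 regions of the JUND window had peaks in all 4 libraries.

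**Figure D4:**
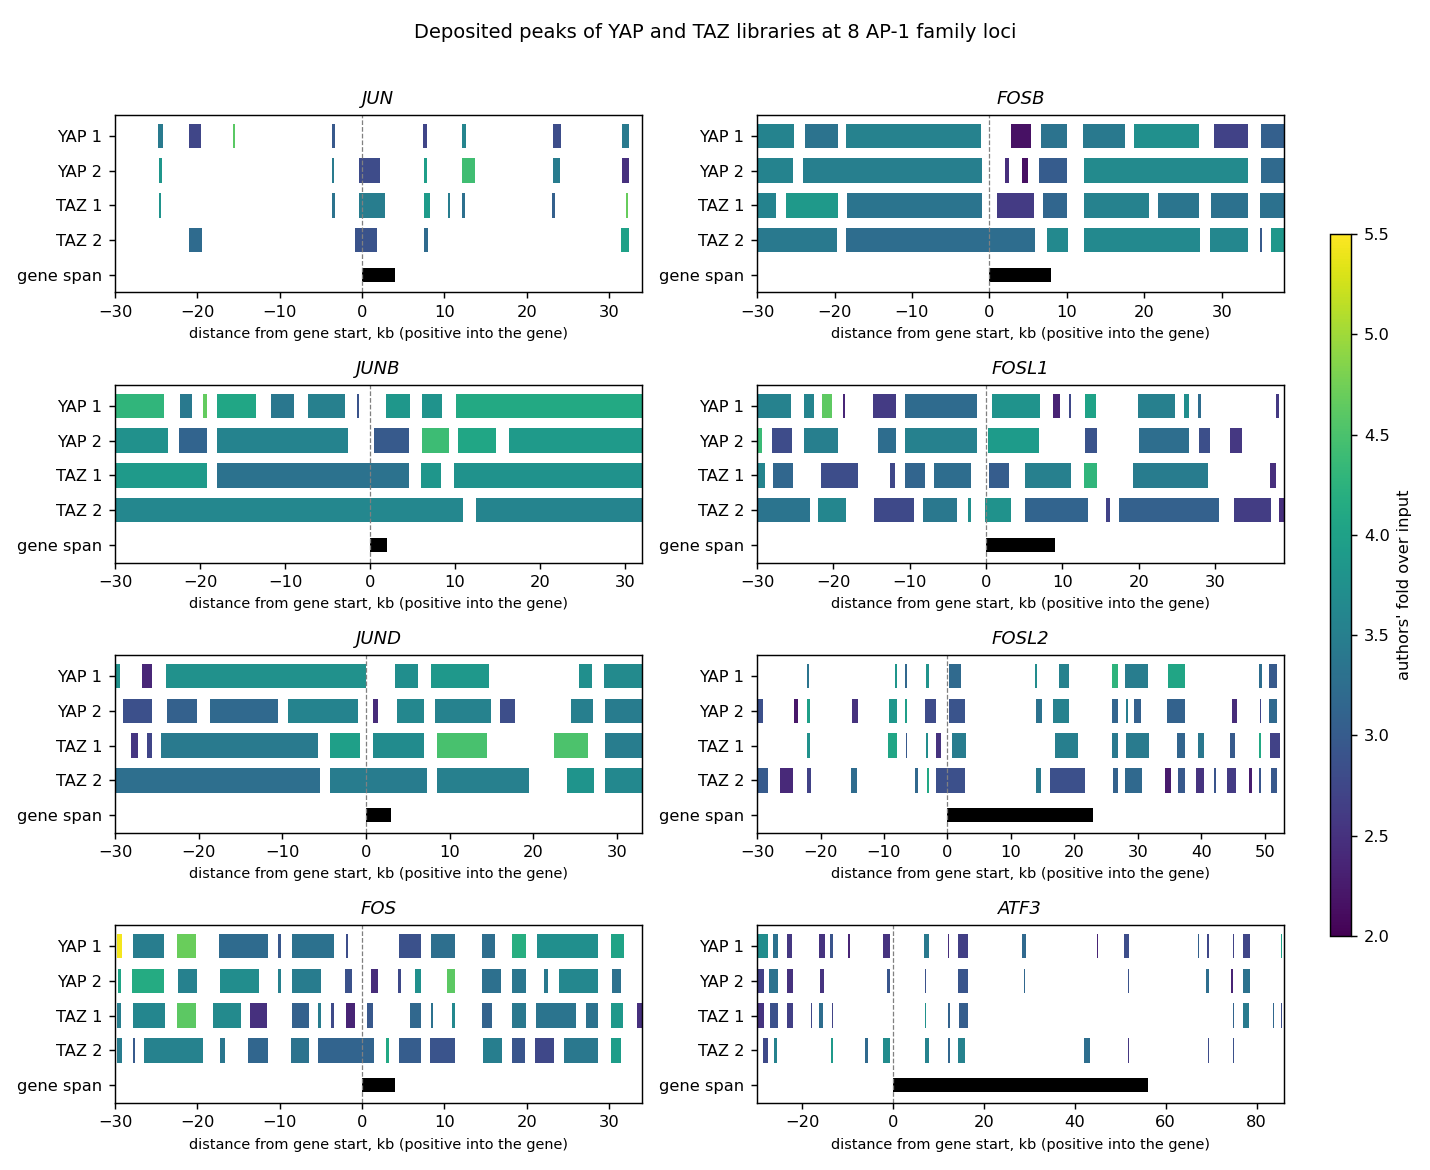
Deposited peaks of the 4 libraries at each locus, by distance from the gene start in kb (positive into the gene), coloured by the authors' fold over input; the black bar is the gene span. Wide peaks fill the JUNB, JUND and FOSB windows and leave the start free in YAP replicate 1 at JUNB and FOSB, while JUN, FOSL2 and ATF3 hold scattered narrow peaks.

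FOS encodes the best-known partner of JUN. Its window, chromosome 14 from 75715001 to 75779000, had a cover of 56.6% and 45.5% in the YAP libraries, against 47.0% and 58.6% in the TAZ libraries. The antibodies overlapped (exact two-sided permutation p = 0.667). The mean cover of 51.9% exceeded that of 94.1% of the tiles of chromosome 14. Of its 13 regions, 11 had peaks in all 4 libraries, 1 had peaks of both YAP libraries only, and 1 had a peak of TAZ replicate 2 only. These regions were taken over their full length. In the one across the downstream edge, only the TAZ replicate 1 peak overlapped the window. The region with both YAP libraries only lay at -10.2 to -9.85 kb, with a fold of 2.95 and 3.51.

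The highest fold at any of the 8 loci was at the upstream edge of the FOS window, at -29.8 to -29.2 kb. There it was 5.43 in YAP replicate 1 and 4.04 in YAP replicate 2, against 3.48 and 3.45 in the TAZ libraries. Both YAP values were higher, and the peak of YAP replicate 1 ranked within the top 0.167% of its list by fold. Peaks at about -22.4 to -20.1 kb had a fold of 4.70 and 3.53 with YAP, against 4.62 in TAZ replicate 1 and 3.54 in a longer peak of TAZ replicate 2. Downstream of the gene, a region at 8.24 to 11.3 kb had a ratio to input of 3.26 and 4.62 with YAP, against 3.63 and 2.91 with TAZ. In RefSeq order the genes next to FOS are TMED10 and JDP2, and JDP2 also encodes an AP-1 family protein.

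FOSB encodes a Fos protein whose short splice form is known from long-lasting responses in brain. Its window, chromosome 19 from 45941001 to 46009000, had a cover of 78.2% and 83.5% in the YAP libraries, against 82.4% and 86.9% in the TAZ libraries. The antibodies overlapped in the window but not over the gene span, which had 47.3% and 36.5% with YAP, against 74.3% and 79.6% with TAZ. The highest fold was 3.74 and 3.66 with YAP, against 3.88 and 3.85 with TAZ. A TAZ replicate 2 peak of 78661 bp ran into the window from upstream, and in the region at 12.1 to 33.4 kb the peak with the highest −log10 q of each library had a fold of 3.74 and 3.66 with YAP, against 3.53 and 3.65 with TAZ. Other peaks there were lower, down to 2.69 in YAP replicate 1. The neighbouring genes are ERCC1 and RTN2.

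FOSL1 encodes FRA-1, a Fos protein often abundant in invasive tumour cells. Its window, chromosome 11 from 65629001 to 65698000, had a cover of 50.9% and 53.8% in the YAP libraries, against 54.7% and 74.4% in the TAZ libraries. The means were 52.4 ± 2.06% with YAP and 64.5 ± 13.97% with TAZ (SD, n = 2 each). The difference was -12.1 percentage points, and it was -2.27 without TAZ replicate 2 and -22.0 without TAZ replicate 1. Limiting peaks to q-values up to 0.01 gave -1.38. Its cover exceeded that of 97.8% of the tiles of chromosome 11. The highest fold was 4.64 and 4.37 with YAP, against 4.29 and 3.78 with TAZ. The YAP maxima lay upstream, at -21.5 to -20.2 kb and -30.8 to -29.4 kb. The TAZ maxima lay downstream of the gene at 12.9 to 14.5 kb in replicate 1 and over the start and first part of the gene, at -0.112 to 3.29 kb, in replicate 2. Ranked by −log10 q, that TAZ replicate 2 peak was the only top peak of a library at any of the 8 loci to overlap a gene start. It reached only to -0.112 kb, and starts are rounded to 1 kb, so this overlap is uncertain.

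FOSL2 encodes FRA-2. Its window, chromosome 2 from 28585001 to 28668000, had a cover of 17.2% and 23.6% in the YAP libraries, against 22.5% and 32.9% in the TAZ libraries, which overlapped. Of its 20 regions, 8 had peaks in all 4 libraries and 4 had a peak of a single TAZ library. The peaks nearest the start had a fold of 3.19 in YAP replicate 1 and 2.90 in YAP replicate 2, against 3.46 in TAZ replicate 1 and 2.85 in TAZ replicate 2, whose peak alone ran across the start. About 3 kb upstream, a narrow peak of YAP replicate 1 had a fold of 3.80 and a wider peak of YAP replicate 2 had 2.79. The narrow peaks of the TAZ libraries there had 3.70 and 4.1. Inside the gene span, a region at 16.2 to 21.6 kb had a ratio to input of 3.54 and 3.53 with YAP, against 3.49 and 2.86 with TAZ. The only region in the 8 loci with both TAZ libraries and no YAP library lay downstream of FOSL2 at 39.2 to 40.5 kb, with a fold of 3.39 and 2.51.

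ATF3 encodes a stress-induced ATF protein. Its window, chromosome 1 from 212708001 to 212824000, was sparsely covered, with 14.2% and 10.3% in the YAP libraries, against 9.38% and 8.11% in the TAZ libraries. The means were 12.3 ± 2.77% with YAP and 8.75 ± 0.898% with TAZ (SD, n = 2 each). The difference of 3.54 percentage points, with YAP higher, was not found with lists of equal length, where it was -0.972. It was 1.58 without YAP replicate 1, 5.5 without YAP replicate 2 and 1.05 with flanks of 10 kb. No ATF3 peak was among the 20000 strongest of any library. The highest fold was 4.01 and 3.32 with YAP, against 3.76 and 3.88 with TAZ. Of its 22 regions, 5 had peaks in all 4 libraries. The region nearest the start, at -2.34 to -0.668 kb, had a ratio to input of 2.52 and 2.94 in the YAP libraries and 3.69 in TAZ replicate 2, and no peak of TAZ replicate 1. Inside the gene span, the region at 28.4 to 29.1 kb had both YAP libraries only, with a fold of 3.18 and 3.15.

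Taken as merged regions, the 8 loci held 82, of which 42 (51.2%, 95% Wilson interval 40.6 to 61.7%, counting error only) had peaks in all 4 libraries. Over all 452943 regions that share was 39.2%. Regions were classed over their full length, also beyond a window. Among the 42 were edge regions of the JUN, FOS and FOSL1 windows, each with a peak of only 1 library inside the window. Fewer than 42 regions thus had peaks of all 4 libraries within a window. Regions of both YAP libraries only were 2 of 82, against 6.87% of all regions, and those of both TAZ libraries only were 1 of 82, against 1.44%. Regions with a peak in 1 TAZ library only were 11 of 82 (13.4%), against 8.97% of all. Without TAZ replicate 2, 68.5% of the remaining 89 regions had peaks in all 3 other libraries. At JUNB, JUND and FOSB every region was found in all 4 libraries, and a wide region can meet more peaks. At JUN, FOSL2 and ATF3 it was 3 of 11, 8 of 20 and 5 of 22.

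**Figure D5:**
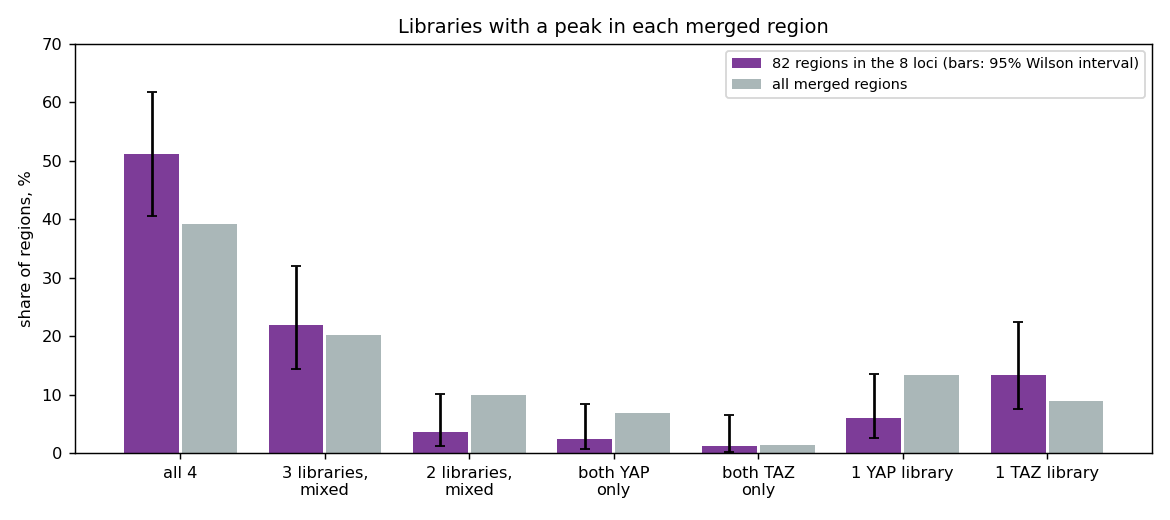
Share of merged regions, in percent, by the libraries that had a peak in them, for the 82 regions of the 8 loci (purple, with 95% Wilson intervals) and all 452943 regions (grey). Regions of all 4 libraries make up 51.2% at the loci and 39.2% overall. Regions that cross a window edge are classed over their full length.

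Of the 340 peaks at these loci, 26 were among the strongest of their library. Of the 20000 peaks of each library with the highest −log10 q, the 8 loci held 9 and 6 in the YAP libraries, against 7 and 4 in the TAZ libraries. These were 9.89% and 6.90% of the YAP peaks at the loci, against 8.14% and 5.26% of the TAZ peaks there. Over all peaks the shares were 5.1% and 5.66% with YAP, against 6% and 6.44% with TAZ. FOSB was the only locus with such a peak in all 4 libraries, that is 1 of 8 loci, against 8.15% of tiles. That count was 0 with the 5000 strongest peaks, 6 with the 50000 strongest, 2 when ranked by fold, 0 with flanks of 10 kb and 5 with flanks of 100 kb. JUN and FOS had them in 3 libraries, and ATF3 in 0. Leaving out TAZ replicate 2, 3 loci had such a peak in every other library. In at least 1 library, 7 of 8 loci had a strong peak, against 58.4% of tiles. In YAP replicate 1, 15.4% of the peaks at the loci had a ratio to input of at least 4, against 9.22% of its whole list. In YAP replicate 2 it was 8.05% against 7.52%. In the TAZ libraries it was 8.14% against 9.68% and 2.63% against 5.60%. In YAP replicate 2 and TAZ replicate 1 these shares, 7 peaks each, lay close to those of the whole lists. The median fold at the loci was 3.38 and 3.25 with YAP, against 3.34 and 3.21 with TAZ.

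Between libraries of the same antibody, the overlap of peaks was lowest at the sparse loci. The Jaccard index, the bases under peaks of both libraries over those under either, was 0.345 for the YAP pair and 0.350 for the TAZ pair at JUN. Between antibodies at JUN it ran from 0.189 to 0.494. At ATF3 it was 0.537 for the YAP pair and 0.211 for the TAZ pair, and 0.240 to 0.635 between antibodies. At FOSL2 it was 0.511 for the YAP pair and 0.465 for the TAZ pair, and 0.338 to 0.524 between antibodies. At JUN, ATF3 and FOSL2, therefore, some YAP library was closer to a TAZ library than libraries of the same antibody were to each other. At FOSL1 it was 0.744 for the YAP pair, 0.549 for the TAZ pair and 0.472 to 0.578 between antibodies. At FOSB, where peaks filled most of the window, it was 0.872 for the YAP pair, 0.890 for the TAZ pair and 0.817 to 0.852 between antibodies. Over all chromosomes the index was 0.612 for the YAP pair, 0.494 for the TAZ pair and 0.495 to 0.540 between antibodies. The index tends to rise with cover alone, and cover was not corrected for. It therefore cannot rank the loci by how well peak positions agreed. Pairs share libraries and may share an input, so these values were not tested.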

How the data were processed

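ChIP-seq peak lists of 2 YAP and 2 TAZ libraries from H1299 cells were used. The submitters' processing notes name MACS2, Bowtie2, SAMtools and cutadapt and build hg19. Their versions are not given in the sources used here. Per the file names, broad peaks were called per library against an input, but the peak names and the list names point to different inputs, so lists may share one. The authors deposited for each peak a fold (ratio of ChIP signal to input), −log10 p-values and q-values, and a score, which was not used. The authors' lists end at a −log10 q of 1.00 to 1.02. Read depth is unknown, and no interval here covers it.

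Peaks on chromosomes 1 to 22 and X were assigned to a locus by at least 1 bp of overlap. Cover is the share of bases under peaks. The background was the 44163 tiles of 64 kb with a peak (3251 without were left out of counts of calls), 2 kb bins, and regions merged from all 4 lists. Merged regions that crossed a window edge were classed over their full length. Strong peaks are the 20000 per library with the highest −log10 q. All 8 members were described, with the peak at the start, the highest −log10 q and the highest fold; other regions were chosen after their values were seen. The members and lists were chosen with earlier results of these data known. The strand of FOSL1 came from general knowledge. Scripts used Python 3.11.15, NumPy 2.4.6 and SciPy 1.17.1 and were tested on simulated data. Alternatives were other thresholds, flanks, list lengths and overlaps, blocking by replicate number, and leaving out each library.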

Additional observations from a re-analysis of the deposited data

How the results depend on the processing

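The YAP minus TAZ difference in cover kept its direction in 65 of 79 alternatives over the 8 loci; at FOSB no value could be had with a fold of at least 4. It reversed for JUN (0.534 percentage points in the report) with a q-value of at most 0.01 (-0.198), trimmed lists (-0.560) and a flank of 10 kb (-4.11), and ran from -0.631 to 1.70 with a library left out. For FOS (-1.72) it reversed at a q-value limit of 0.01 (2.30), at fold 4 or more (6.90), trimmed lists (0.547) and a flank of 100 kb (3.71), and ran from -7.50 to 4.07 with a library left out. A fold of at least 4 also reversed JUNB (32.5), FOSL1 (1.33) and FOSL2 (0.958), and trimmed lists reversed ATF3 (-0.972). Loci with more YAP cover numbered 1 in the report, 3 with a fold of at least 4, 0 with trimmed lists, 0 with a flank of 10 kb and 1 to 2 with a library left out. Loci with more TAZ cover numbered 3, then 0 with a fold of at least 4, 6 with trimmed lists and 3 to 6 with a library left out. Starts with more TAZ cover numbered 4, then 0 with a fold of at least 4 and 4 to 7 with a library left out; starts under a peak in all 4 libraries numbered 3, then 0, 3 to 6, and 6 within 3 kb. Loci with a strong peak in all 4 libraries numbered 1, then 0 with 5000 strong peaks, 6 with 50000, 2 ranked by fold, 0 and 5 with flanks of 10 and 100 kb, and 1 to 3 with a library left out. Regions in all 4 libraries made up 51.2%, then 0% with a fold of at least 4, 25.6% where peaks had to cover at least 50% of the region, and 54.8 to 68.5% with a library left out. The causes were not tested. Between libraries of the same replicate number, the correlation of deviations from the antibody mean over the 8 loci was -0.0314. With 2 libraries an antibody this is a single value, so it cannot decide whether replicate numbers pair the libraries. With the replicate number as a block, loci with more TAZ cover numbered 5, those with more YAP cover 1, and starts with more TAZ cover 5. The count of starts with more TAZ cover was itself not planned. Alternatives for starts and for loci with more TAZ cover were added after seeing the data. Unknown read depth limits all counts of peaks and cover.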
